A study of Mus musculus with 9 samples.

Results

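Insulin-like growth factor 1 (Igf1), its receptor (Igf1r) and 6 binding protein genes (Igfbp2, Igfbp3, Igfbp4, Igfbp5, Igfbp6 and Igfbp7) were followed in bulk mRNA sequencing of mouse adipose-derived stem cells (ASCs). They were found by name in the gene count table, where 8 of 54532 genes carried these names. All 8 passed the filter on low counts that left 16526 genes for testing. ASCs of C57BL/6 mice were grown from subcutaneous adipose tissue (Sub-ASCs), abdominal adipose tissue (Ab-ASCs) and perivascular adipose tissue, the fat around blood vessels (PVASCs). Each group had 3 libraries. Cultures of every group were kept in the same stem cell medium with serum, leukemia inhibitory factor and fibroblast growth factor and were harvested at passages 3 to 6, and no treatment or genetic change was listed for any group. The age and sex of the mice are not given in the sources used here, nor is a sorting step. The labels do not say that replicates came from separate animals or cultures, so that p-values measure only the spread between these samples, which may be technical.

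IGF1 is a small secreted hormone that acts through the receptor tyrosine kinase IGF1R, which signals to PI3K, AKT and mTOR and promotes growth, survival and differentiation of mesenchymal cells. Liver releases most circulating IGF1 under growth hormone, while connective tissue cells, adipose stroma included, make it locally. The classical binding proteins hold IGFs with high affinity outside the cell, carry them, keep them from the receptor or release them when cut by proteases such as pappalysin, whereas IGFBP7 binds IGFs only weakly and is known as a protein of vessel walls and basement membranes. Serum in the medium also brings IGFs and binding proteins, and only transcripts of the cultured cells were measured here.

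Libraries held 20524173 to 29881036 counted reads, and 3 reads, the limit that a count of 0 allows, corresponded to 0.0917 to 0.161 CPM (reads scaled to a common library size). This limit covers counting error only. The spread between replicates, as the biological coefficient of variation over all tested genes, was highest in Ab-ASCs (12.5%), followed by Sub-ASCs (5.69%) and PVASCs (3.85%), and among Ab-ASCs replicate 1 stood apart from the other two. The study described PVASCs by a panel of surface proteins in flow cytometry, whereas the values here are transcript levels in all 3 groups. Of the genes of that panel, Ly6a (Sca1) was at 2049 CPM in Sub-ASCs, 21.8 in Ab-ASCs and 111 in PVASCs. Thy1 (CD90) and Eng (CD105) were at 108 CPM or more in every group. Ptprc (CD45), a negative marker, was between 1.41 and 8.94 CPM, while Pecam1 (CD31), also a negative marker, was at 45.3 CPM in Sub-ASCs, 12.5 in Ab-ASCs and 180 in PVASCs.

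Promoter sequences are shown for 4 binding protein genes that differed strongly between groups: Igfbp3 and Igfbp4, which were high in Sub-ASCs, and the neighbours Igfbp2 and Igfbp5, which differed in opposite directions between Ab-ASCs and Sub-ASCs. Each sequence holds the 250 bases before the RefSeq start of the gene on GRCm38.p6, read 5′ to 3′ on the strand of the gene. For Igfbp5, the last 19 of these bases are exon sequence by the gene position used for the counts, which begins upstream of the RefSeq start. The TATA box (TATAAA), the CCAAT box (CCAAT) and the GC box (GGGCGG) were searched on both strands, and capitals mark the matches. Among 32851 windows of the same length, 12.4% held TATAAA, 33.8% held CCAAT and 32.7% held GGGCGG.
Igfbp3, chr11:7213924-7214173, minus strand: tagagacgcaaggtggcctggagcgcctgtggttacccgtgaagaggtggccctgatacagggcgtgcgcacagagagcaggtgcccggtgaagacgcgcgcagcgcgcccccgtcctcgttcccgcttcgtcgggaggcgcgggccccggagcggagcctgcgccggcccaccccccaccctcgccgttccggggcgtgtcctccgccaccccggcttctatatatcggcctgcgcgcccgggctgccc
Igfbp4, chr11:99040994-99041243, plus strand: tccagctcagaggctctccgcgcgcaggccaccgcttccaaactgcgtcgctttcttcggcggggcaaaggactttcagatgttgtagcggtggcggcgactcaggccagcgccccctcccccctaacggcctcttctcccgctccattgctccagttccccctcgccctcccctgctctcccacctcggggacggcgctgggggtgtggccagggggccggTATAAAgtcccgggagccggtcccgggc
Igfbp2, chr1:72824230-72824479, plus strand: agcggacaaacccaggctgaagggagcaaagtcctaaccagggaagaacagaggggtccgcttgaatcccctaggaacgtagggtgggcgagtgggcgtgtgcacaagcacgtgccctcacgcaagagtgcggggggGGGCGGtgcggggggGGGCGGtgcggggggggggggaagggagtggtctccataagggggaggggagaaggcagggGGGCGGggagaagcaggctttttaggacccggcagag
Igfbp5, chr1:72874866-72875115, minus strand: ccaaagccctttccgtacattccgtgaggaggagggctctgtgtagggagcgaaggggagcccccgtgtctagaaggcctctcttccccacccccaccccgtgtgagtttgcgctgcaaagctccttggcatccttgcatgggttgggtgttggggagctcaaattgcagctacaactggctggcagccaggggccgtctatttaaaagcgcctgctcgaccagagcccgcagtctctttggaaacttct
Igfbp4 held a single TATAAA, beginning 28 bases before the start. Igfbp2 held 3 GGGCGG matches and no other motif searched, and the windows of Igfbp3 and Igfbp5 held none of these letters. CG dinucleotides numbered 32 in the Igfbp3 window, 22 in Igfbp4, 14 in Igfbp2 and 10 in Igfbp5, against a median of 6 over all windows. These matches describe the sequence, and neither methylation nor binding of factors was measured.

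Sub-ASCs had the highest transcript levels of Igf1, Igfbp3 and Igfbp4. Ab-ASCs had the highest levels of Igfbp2, Igfbp6 and Igfbp7 and the lowest of Igf1, Igfbp3 and Igfbp5. PVASCs shared a high level of Igfbp5 with Sub-ASCs and low levels of Igf1 and Igfbp4 with Ab-ASCs, and had the highest level of Igf1r. Levels per library below are CPM normalized by the trimmed mean of M-values (TMM), and errors of means are SDs over 3 libraries. Fold changes on the log2 scale are given with their standard error (SE), and adjusted p is from edgeR's quasi-likelihood F-test with Benjamini-Hochberg adjustment over all tested genes. A gene is described as higher or lower where adjusted p was under 0.05. In bulk libraries, fewer cells of a type and less RNA per cell cannot be told apart.

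**Figure D1:**
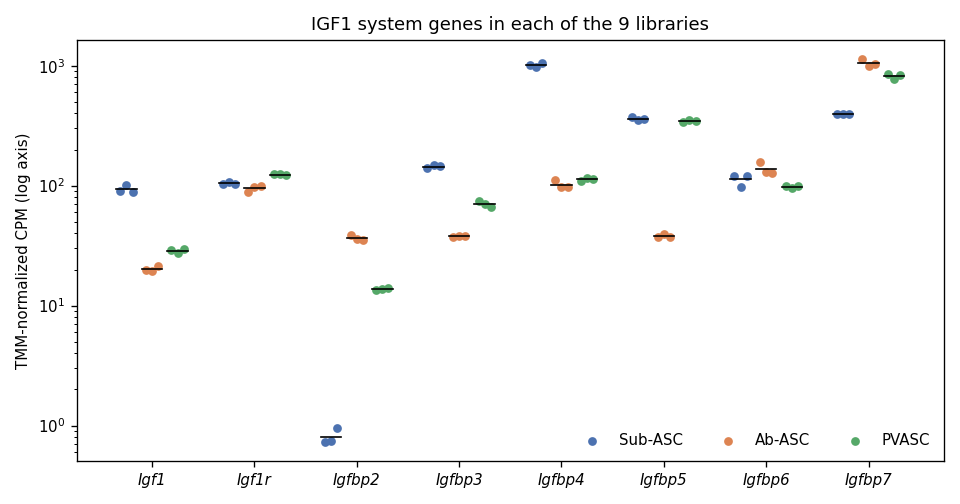
TMM-normalized CPM on a log axis for each of the 8 genes, where each point is a library and the bar is the mean of 3 libraries in Sub-ASCs, Ab-ASCs or PVASCs. Igfbp2 lies below 1 CPM in the 3 Sub-ASC libraries and at 13.5 CPM or more in all others, while Igf1r and Igfbp6 vary little between groups.

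Igf1 encodes the ligand and lies on chr10:87858265-87937042 of mm10, plus strand. In Sub-ASC replicates 1, 2 and 3, Igf1 was at 90.0, 101 and 88.3 CPM. In Ab-ASCs it was at 19.7, 19.6 and 21.2 CPM, and in PVASCs at 28.9, 27.5 and 29.6 CPM. The 3 groups did not overlap, with Sub-ASCs far above and PVASCs slightly above Ab-ASCs. Igf1 was 3.25-fold lower in PVASCs than in Sub-ASCs (log2 fold change -1.70, SE 0.07, adjusted p = 2.33e-10) and 4.61-fold lower in Ab-ASCs than in Sub-ASCs (-2.21, SE 0.07, adjusted p = 3.06e-11). The difference between PVASCs and Ab-ASCs was smaller, 1.42-fold with PVASCs higher (0.51, SE 0.07, adjusted p = 9.20e-05).

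Igf1r, on chr7:67952827-68233668, plus strand, encodes the receptor. Its levels were 104, 107 and 104 CPM in Sub-ASCs, 89.1, 97.7 and 99.5 in Ab-ASCs and 124, 125 and 122 in PVASCs. All PVASC libraries were above all others, and the groups lay within a narrow range compared with those of the ligand. Igf1r was 1.18-fold higher in PVASCs relative to Sub-ASCs (log2 fold change 0.24, SE 0.05, adjusted p = 0.00174) and 1.30-fold higher than in Ab-ASCs (0.38, SE 0.05, adjusted p = 1.12e-04). Between Ab-ASCs and Sub-ASCs it differed by 1.10-fold (-0.14, SE 0.05, adjusted p = 0.0397), a call that was lost when any of 7 libraries was left out, with adjusted p between 0.0638 and 0.127. Those were the 3 Sub-ASC libraries, Ab-ASC replicate 1 and the 3 PVASC libraries. Per length, the ratio of Igf1 to Igf1r in FPKM (reads divided by gene length and library total) was 1.44 to 1.59 in Sub-ASCs, 0.340 to 0.375 in Ab-ASCs and 0.372 to 0.410 in PVASCs. By CPM, without division by length, it was 0.851 to 0.941, 0.201 to 0.221 and 0.219 to 0.242.

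Igfbp3, on chr11:7206086-7213923, minus strand, encodes the main carrier of IGFs in blood. Sub-ASC libraries had 139, 149 and 145 CPM, Ab-ASC libraries 37.2, 38.4 and 38.2, and PVASC libraries 74.3, 70.0 and 66.1. PVASCs lay between the other groups with no overlap. Igfbp3 was 2.06-fold lower in PVASCs than in Sub-ASCs (log2 fold change -1.04, SE 0.06, adjusted p = 5.37e-09), 1.85-fold higher than in Ab-ASCs (0.89, SE 0.06, adjusted p = 1.37e-07) and 3.81-fold lower in Ab-ASCs than in Sub-ASCs (-1.93, SE 0.06, adjusted p = 2.21e-11). Its neighbour Igfbp1, which lies 3539 bases away, had at most 3 reads in any library.

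Igfbp4, on chr11:99041244-99054392, plus strand, encodes an inhibitory binding protein that is cleaved by pappalysin. It was the most abundant of the 8 genes by CPM in Sub-ASCs, at 1011, 978 and 1059. In Ab-ASCs it was at 112, 96.5 and 97.1 CPM, and in PVASCs at 109, 115 and 114 CPM. Sub-ASC libraries were thus far above the other groups, which overlapped. Igfbp4 was 9.02-fold lower in PVASCs (log2 fold change -3.17, SE 0.07, adjusted p = 6.31e-13) and 9.98-fold lower in Ab-ASCs (-3.32, SE 0.07, adjusted p = 4.54e-13) than in Sub-ASCs. PVASCs and Ab-ASCs gave 0.15 (SE 0.06, adjusted p = 0.0684), and without Ab-ASC replicate 1, the highest of its group, the adjusted p became 5.71e-04.

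Igfbp5, on chr1:72857932-72874884, minus strand, encodes a binding protein that adheres to extracellular matrix. Sub-ASC libraries had 374, 352 and 362 CPM and PVASC libraries 341, 350 and 344, whereas Ab-ASC libraries had 37.1, 39.2 and 37.4. Igfbp5 thus parted Ab-ASCs from both other groups. It was 9.10-fold higher in PVASCs than in Ab-ASCs (log2 fold change 3.19, SE 0.05, adjusted p = 1.86e-12) and 9.57-fold lower in Ab-ASCs than in Sub-ASCs (-3.26, SE 0.05, adjusted p = 8.04e-14). PVASCs and Sub-ASCs did not pass the threshold (-0.07, SE 0.05, adjusted p = 0.191), although the libraries did not overlap. The sign of this small difference turned with scaling, since with library totals in place of TMM it was 0.09 and likewise not called.

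Igfbp2 lies next to Igfbp5, on chr1:72824503-72852474, plus strand, with 5457 bases between the ends of the genes, which point toward each other. It encodes a binding protein that is abundant in fetal tissue and in preadipocytes. In Sub-ASCs it was at 0.730, 0.747 and 0.953 CPM, from 17, 19 and 25 reads. In Ab-ASCs it was at 39.0, 35.8 and 35.0 CPM, and in PVASCs at 13.5, 13.7 and 13.9 CPM. The order was the reverse of that of Igf1, with Ab-ASCs highest and Sub-ASCs far below the other groups. Igfbp2 was 44.7-fold higher in Ab-ASCs (log2 fold change 5.48, SE 0.11, adjusted p = 5.20e-13) and 16.8-fold higher in PVASCs (4.07, SE 0.12, adjusted p = 1.31e-11) than in Sub-ASCs, and 2.67-fold lower in PVASCs than in Ab-ASCs (-1.42, SE 0.08, adjusted p = 1.76e-08). The ratio of Igfbp5 to Igfbp2 in FPKM ranged from 117 to 158 in Sub-ASCs, from 7.62 to 7.87 in PVASCs and from 0.292 to 0.337 in Ab-ASCs. By CPM it was 455 ± 68.3, 25.2 ± 0.408 and 1.04 ± 0.0765 in the same order of groups.

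**Figure D2:**
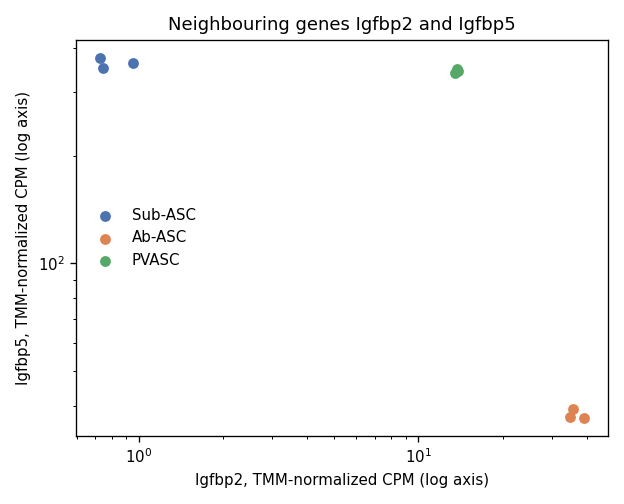
Igfbp5 against Igfbp2, both as TMM-normalized CPM on log axes, with each point a library. The 3 groups form separate clusters: Sub-ASCs at high Igfbp5 and low Igfbp2, Ab-ASCs at low Igfbp5 and high Igfbp2, and PVASCs at high Igfbp5 and intermediate Igfbp2.

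Igfbp6, on chr15:102144362-102149511, plus strand, encodes a binding protein with a preference for IGF2. It was at 120, 98.3 and 121 CPM in Sub-ASCs, 157, 129 and 127 in Ab-ASCs and 99.5, 96.1 and 99.3 in PVASCs. Differences were small, and the Sub-ASC and PVASC libraries overlapped. PVASCs were 1.40-fold lower than Ab-ASCs (log2 fold change -0.48, SE 0.09, adjusted p = 9.26e-04), and Ab-ASCs were 1.22-fold higher than Sub-ASCs (0.28, SE 0.09, adjusted p = 0.0164). The latter call was lost without Sub-ASC replicate 2 (adjusted p = 0.0676). PVASCs and Sub-ASCs gave -0.20 (SE 0.09, adjusted p = 0.0716), and the adjusted p became 0.0129 without Sub-ASC replicate 2 and 0.00495 without Ab-ASC replicate 1.

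Igfbp7, on chr5:77349240-77408041, minus strand, was the most abundant of the 8 genes in Ab-ASCs and PVASCs. Its levels were 399, 393 and 393 CPM in Sub-ASCs, 1129, 989 and 1041 in Ab-ASCs and 859, 781 and 834 in PVASCs. The groups did not overlap. Igfbp7 was 2.67-fold higher in Ab-ASCs (log2 fold change 1.42, SE 0.06, adjusted p = 2.48e-10) and 2.09-fold higher in PVASCs (1.06, SE 0.06, adjusted p = 3.80e-09) than in Sub-ASCs, and 1.28-fold lower in PVASCs than in Ab-ASCs (-0.35, SE 0.06, adjusted p = 2.25e-04). Over the other filters, scalings and fits tried, the log2 fold change between PVASCs and Ab-ASCs ranged from -0.40 to -0.12. The gene shares 85 exon bases with Polr2b on the opposite strand, which had 1323 to 2764 reads over its whole length, against 9293 to 28110 for Igfbp7. The sources used here do not state whether reads were counted by strand.

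All 8 genes differed among the groups, with adjusted p from 9.55e-14 for Igfbp5 to 0.00136 for Igfbp6, where 84.6% of all tested genes did so. Between PVASCs and Sub-ASCs, 3 were higher in PVASCs (34.7% of all genes), 3 were lower (35.7%) and 2 were not called, against 70.4% called in all. The libraries did not overlap for 7 of the 8 genes, as for 77.3% of all genes, and 5 differed with a log2 fold change of 1 or more in size, as did 32.2%. Their median log2 fold change was -0.14, and -0.01 over all genes. Between PVASCs and Ab-ASCs, 4 were higher in PVASCs (24.7% of all genes), 3 were lower (32.1%) and 1 was not called, against 56.9% called in all. Libraries did not overlap for 7 (63.9%), and only Igfbp2 and Igfbp5 reached this size (15.4%). Here the median was 0.27 against -0.06. Between Ab-ASCs and Sub-ASCs, 3 were higher in Ab-ASCs (37.0% of all genes) and 5 were lower (38.3%), where 75.3% were called in all. None of the 8 overlapped (76.5%), 6 reached this size (37.8%) and the median was -1.03 against -0.03. With calls this frequent over the transcriptome, the number of called genes does not set the IGF genes apart. The comparisons share libraries and are not independent of each other. Over all genes, 5735 were higher and 5893 lower in PVASCs than in Sub-ASCs, and without TMM 6897 and 4766. Against Ab-ASCs, 4088 were higher and 5308 lower in PVASCs, and without TMM 6291 and 2680.

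**Figure D3:**
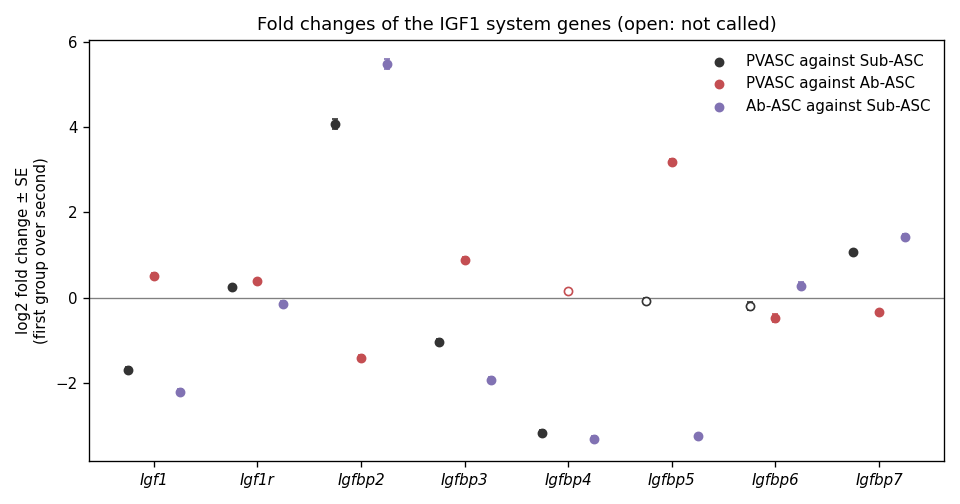
Log2 fold change ± SE of the 8 genes in the 3 comparisons, where values above 0 are higher in the first group and open circles did not pass the threshold. Igfbp2 and Igfbp4 lie far from 0 against Sub-ASCs, and Igfbp5 in both comparisons with Ab-ASCs.

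Levels of different genes were compared per length, as FPKM without TMM. Igfbp7 came first in every group, at 320 ± 3.27 in Sub-ASCs, 812 ± 33.9 in Ab-ASCs and 745 ± 38.7 in PVASCs. Sub-ASCs continued with Igfbp4 (225 ± 8.42), Igfbp6 (99.5 ± 11.2), Igfbp5 (59.1 ± 1.84), Igfbp3 (45.1 ± 1.54), Igf1 (9.19 ± 0.688), Igf1r (6.11 ± 0.126) and Igfbp2 (0.429 ± 0.0648). In Ab-ASCs, Igfbp6 (115 ± 11.4) was second, followed by Igfbp4 (21.5 ± 1.30), Igfbp2 (18.5 ± 0.673), Igfbp3 (11.3 ± 0.475), Igfbp5 (5.89 ± 0.309), Igf1r (5.31 ± 0.430) and Igf1 (1.90 ± 0.104). PVASCs had Igfbp6 (96.5 ± 2.21), Igfbp5 (62.7 ± 0.647), Igfbp4 (27.8 ± 0.752), Igfbp3 (24.5 ± 1.45), Igfbp2 (8.10 ± 0.0991), Igf1r (8.05 ± 0.0812) and Igf1 (3.16 ± 0.126). Neighbours in these orders did not overlap, except Igfbp2 and Igf1r in PVASCs. The ligand thus had the lowest FPKM of the 8 genes in Ab-ASCs and PVASCs. By CPM, Igfbp2 was below it in PVASCs, at 13.7 against 28.7.

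The makeup of the binding protein transcripts, as each gene's share of the summed FPKM of Igfbp1 to Igfbp7, differed between groups in values without a test. Igfbp7 made up 42.7% ± 1.11 in Sub-ASCs, 82.5% ± 0.674 in Ab-ASCs and 77.2% ± 0.815 in PVASCs. Igfbp4 made up 30.1% ± 0.586 in Sub-ASCs, 2.18% ± 0.0506 in Ab-ASCs and 2.89% ± 0.191 in PVASCs. Igfbp5 stood at 7.89% ± 0.169 in Sub-ASCs and 6.51% ± 0.343 in PVASCs, and at 0.600% ± 0.0573 in Ab-ASCs. The share of Igfbp6 lay between 9.80% and 14.0% in all libraries. The shares depend on the division by length: by CPM alone, Igfbp7 made up 19.4% in Sub-ASCs, 75.0% in Ab-ASCs and 56.3% in PVASCs. Igfbp4 then made up 50.0%, 7.25% and 7.69% and had the largest share in Sub-ASCs, and Igfbp5 made up 17.8%, 2.71% and 23.6%, with PVASCs above Sub-ASCs. The summed FPKM of Igfbp1 to Igfbp7 was 749 ± 19.1 in Sub-ASCs, 985 ± 44.8 in Ab-ASCs and 965 ± 40.1 in PVASCs, and without the weakly binding Igfbp7 it was 429 ± 18.8, 173 ± 12.7 and 220 ± 1.43. By CPM, the sum of Igfbp1 to Igfbp7 was highest in Sub-ASCs, at 2032 ± 55.6 against 1405 ± 95.2 in Ab-ASCs and 1465 ± 35.2 in PVASCs, so that the direction turned without division by length. Set against the ligand, these high-affinity binding protein transcripts amounted to 47.0 ± 5.36 per Igf1 transcript in Sub-ASCs, 91.1 ± 11.4 in Ab-ASCs and 69.6 ± 2.50 in PVASCs. This ratio also rests on the listed lengths, since by CPM alone it was 15.7 to 19.1 in Sub-ASCs, 15.8 to 19.4 in Ab-ASCs and 21.5 to 23.5 in PVASCs, with Sub-ASCs and Ab-ASCs overlapping.

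**Figure D4:**
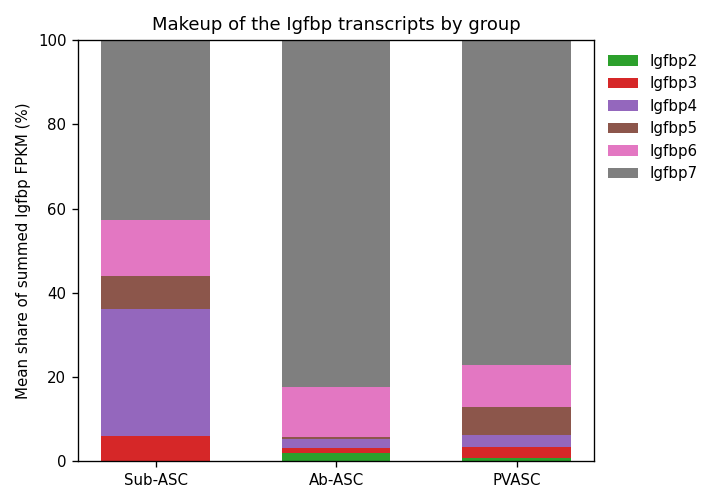
Mean share of each gene in the summed FPKM of the Igfbp genes (%), stacked for each group. Igfbp7 takes 42.7% in Sub-ASCs and 77.2% or more in the other groups, and Igfbp4 takes 30.1% only in Sub-ASCs.

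The genes whose profile over the 9 libraries was closest to each of the 8 were found by the Euclidean distance of centred log2 CPM. Tek (distance 0.19), Cpq (0.22) and Uhrf2 (0.25) were closest to Igf1. Those closest to Igfbp3 were Sox5, St3gal1 and Icam1, and those closest to Igfbp7 were Myo1c, Cct2 and Kifc3. Slc16a11 (0.54), Il11 (0.60) and Ncam1 (0.63) followed Igfbp2. Dkk3 (0.55), Cd34 (0.61) and Cdh13 (0.84) were closest to Igfbp5. For Igfbp4 these were Ctso, Lgmn and Cbln2, of which Cbln2 had no read in Ab-ASCs and PVASCs. Rbpj, Ctbs and Trp53bp1 were closest to Igf1r, and Rce1, 2310011J03Rik and Eif2b4 to Igfbp6. Among the 8 genes themselves, Igf1 and Igfbp3 had the most similar profiles (0.83), and Igfbp2 and Igfbp4 the least similar (11.36). Even so, Igfbp3 was only at rank 217 among the genes closest to Igf1, and Igf1 at rank 240 for Igfbp3. The 9 libraries fall in 3 groups, so that these distances mostly compare 3 group levels.

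Other genes of the IGF axis were taken from 5 lists of 62 genes, of which 54 were tested. Of these, 18 were higher and 31 lower in PVASCs than in Sub-ASCs, beside 34.7% and 35.7% of all genes. Against Ab-ASCs, 23 were higher and 16 lower in PVASCs, beside 24.7% and 32.1%, and 16 were higher and 33 lower in Ab-ASCs than in Sub-ASCs, beside 37.0% and 38.3%. Their median log2 fold changes were -0.36, 0.03 and -0.55, and over all genes -0.01, -0.06 and -0.03. Without TMM, the PVASC and Ab-ASC split became 32 higher and 11 lower.

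Among the other ligands and receptors, Igf2 had at most 5 reads in any library, and Ins1 and Ins2 had none. Insr, the insulin receptor, was at 89.7 ± 3.94 CPM in Sub-ASCs, 36.7 ± 1.55 in Ab-ASCs and 45.9 ± 1.52 in PVASCs, and thus 1.95-fold lower in PVASCs than in Sub-ASCs (log2 fold change -0.97, SE 0.06, adjusted p = 1.47e-08). Igf2r, which clears IGF2, was at 213 ± 2.41, 193 ± 3.09 and 283 ± 5.54 CPM and was highest in PVASCs, by 1.33-fold over Sub-ASCs (0.41, SE 0.04, adjusted p = 3.50e-06) and 1.47-fold over Ab-ASCs (0.56, SE 0.04, adjusted p = 7.05e-07). Insrr, the insulin receptor-related receptor, was at 3.34 ± 0.188 CPM in Sub-ASCs and had at most 4 reads in any other library. The 3 tested genes of this list were lower in Ab-ASCs than in Sub-ASCs, as were 38.3% of all genes, and Igf2r by only 1.10-fold.

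The other proteins with an IGFBP domain include the CCN matricellular proteins and HtrA proteases. Of 11 tested, 8 were higher and 3 lower in PVASCs than in Sub-ASCs (34.7% and 35.7% of all genes). In PVASCs 6 were higher and 5 lower than in Ab-ASCs (24.7% and 32.1%), and in Ab-ASCs 7 were higher and 4 lower than in Sub-ASCs (37.0% and 38.3%). All 11 were thus called in each comparison, where 70.4%, 56.9% and 75.3% of all genes were. Esm1 (endocan, a proteoglycan of endothelial cells) was at 258 ± 0.123 CPM in PVASCs, against 3.64 ± 0.325 in Sub-ASCs and 7.50 ± 0.823 in Ab-ASCs, a 70.9-fold difference from Sub-ASCs (log2 fold change 6.15, SE 0.09, adjusted p = 3.83e-14) and 34.2-fold from Ab-ASCs (5.10, SE 0.08, adjusted p = 1.86e-12). The CCN genes did not move together. Ctgf was at 41.1 ± 2.04 CPM in Sub-ASCs, 2822 ± 138 in Ab-ASCs and 1312 ± 25.5 in PVASCs, whereas Wisp2 was at 268 ± 10.6, 1.63 ± 0.171 and 35.0 ± 1.49 CPM, and Nov at 14.4 ± 0.497, 10.4 ± 0.895 and 38.7 ± 1.83 CPM. The protease Htra3 was at 393 ± 12.5 CPM in Sub-ASCs and at 13.0 ± 0.739 in Ab-ASCs and 10.3 ± 1.10 in PVASCs, a fall of 38.1-fold in PVASCs from Sub-ASCs (-5.25, SE 0.08, adjusted p = 6.23e-14).

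Of the 7 tested genes of the ternary complex, proteases and their inhibitors, 1 was higher and 5 lower in PVASCs than in Sub-ASCs (34.7% and 35.7% of all genes), 2 were higher, 2 lower and 3 not called in PVASCs against Ab-ASCs (24.7% higher and 32.1% lower), and 2 were higher and 5 lower in Ab-ASCs than in Sub-ASCs (37.0% and 38.3%). Pappa, which cleaves IGFBP4, was the higher member in PVASCs, at 14.1 ± 0.534 CPM against 1.59 ± 0.356 in Sub-ASCs and 7.42 ± 1.13 in Ab-ASCs, a difference of 8.89-fold from Sub-ASCs (log2 fold change 3.15, SE 0.16, adjusted p = 1.68e-09). Pappa2 went the other way, at 7.37 ± 0.734 CPM in Sub-ASCs, 1.16 ± 0.356 in Ab-ASCs and 1.27 ± 0.202 in PVASCs (PVASCs against Sub-ASCs -2.53, SE 0.18, adjusted p = 6.26e-08). The inhibitor of pappalysin Stc1 was at 77.2 ± 2.75 CPM in Sub-ASCs, 7.05 ± 0.698 in Ab-ASCs and 32.0 ± 2.53 in PVASCs, and was 4.52-fold higher in PVASCs than in Ab-ASCs (2.18, SE 0.09, adjusted p = 1.64e-09). Its relative Stc2, chosen after its values were seen, was at 21.1 ± 1.11, 13.6 ± 1.08 and 6.82 ± 0.799 CPM, lowest in PVASCs. Igfals, which joins IGFBP3 and IGF1 in the complex, was at 2.83 ± 0.355 CPM in Sub-ASCs and had at most 10 reads in any other library. Adam12, a protease of IGFBP3 and IGFBP5, was at 158 ± 8.20 CPM in Sub-ASCs, 359 ± 6.64 in Ab-ASCs and 147 ± 0.897 in PVASCs, and was 2.44-fold lower in PVASCs than in Ab-ASCs (-1.29, SE 0.05, adjusted p = 1.21e-09).

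The list of signalling below the receptor holds substrates, kinases and their regulators. Of 27 tested genes, 7 were higher and 16 lower in PVASCs than in Sub-ASCs (34.7% and 35.7% of all genes) and 6 were higher and 16 lower in Ab-ASCs than in Sub-ASCs (37.0% and 38.3%), with median log2 fold changes of -0.31 and -0.38. Against Ab-ASCs, 11 were higher and 7 lower in PVASCs (24.7% and 32.1%), a split that became 19 and 3 without TMM, and against Sub-ASCs that of PVASCs became 8 and 11. Pik3cb, a catalytic subunit of PI3K, was at 5.34 ± 0.277 CPM in Sub-ASCs, 33.5 ± 2.65 in Ab-ASCs and 24.3 ± 1.02 in PVASCs, and was 4.54-fold higher in PVASCs relative to Sub-ASCs (log2 fold change 2.18, SE 0.09, adjusted p = 2.38e-10). Grb14, an adaptor that inhibits the receptor, was at 14.7 ± 1.65, 26.6 ± 2.16 and 49.5 ± 1.54 CPM and was 3.37-fold higher in PVASCs relative to Sub-ASCs (1.75, SE 0.09, adjusted p = 1.82e-09). Irs1, the receptor substrate, was at 21.8 ± 1.42 CPM in Sub-ASCs, 9.97 ± 1.33 in Ab-ASCs and 17.2 ± 0.645 in PVASCs, and was 2.18-fold lower in Ab-ASCs than in Sub-ASCs (-1.12, SE 0.10, adjusted p = 5.05e-07). Pik3r3 and Rictor were the other genes named by rank in this list, with Rictor at 53.7 ± 3.79, 23.5 ± 6.35 and 52.1 ± 2.75 CPM.

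Growth hormone raises Igf1 through its receptor GHR, the kinase JAK2 and STAT5. All 6 genes of this list were tested. In PVASCs 5 were lower and 1 higher than in Sub-ASCs (35.7% and 34.7% of all genes, 70.4% called in all). The same counts held in Ab-ASCs against Sub-ASCs (38.3% and 37.0%, 75.3% called in all). Between PVASCs and Ab-ASCs, 2 were higher in PVASCs, 2 lower and 2 not called (24.7% higher and 32.1% lower, with 56.9% of all genes called). Ghr was at 197 to 216 CPM in Sub-ASCs, 44.6 to 58.4 in Ab-ASCs and 122 to 126 in PVASCs, and was 2.36-fold higher in PVASCs than in Ab-ASCs (log2 fold change 1.24, SE 0.08, adjusted p = 1.43e-07). Stat5a was at 88.7 ± 2.92, 21.4 ± 0.552 and 15.8 ± 0.217 CPM and Stat5b at 114 ± 0.261, 38.4 ± 1.41 and 37.6 ± 0.936 CPM. They were lower in PVASCs than in Sub-ASCs by 5.62-fold (-2.49, SE 0.06, adjusted p = 1.66e-12) and 3.02-fold (-1.60, SE 0.05, adjusted p = 4.42e-11). Cish, a feedback inhibitor induced by STAT5, was at 20.7 ± 0.990, 7.63 ± 0.144 and 9.01 ± 0.344 CPM. The member that went the other way was Socs2, also a feedback inhibitor, at 35.8 ± 0.996 CPM in Sub-ASCs, 162 ± 8.88 in Ab-ASCs and 76.1 ± 3.23 in PVASCs, and 4.54-fold higher in Ab-ASCs than in Sub-ASCs (2.18, SE 0.06, adjusted p = 8.38e-12).

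**Figure D5:**
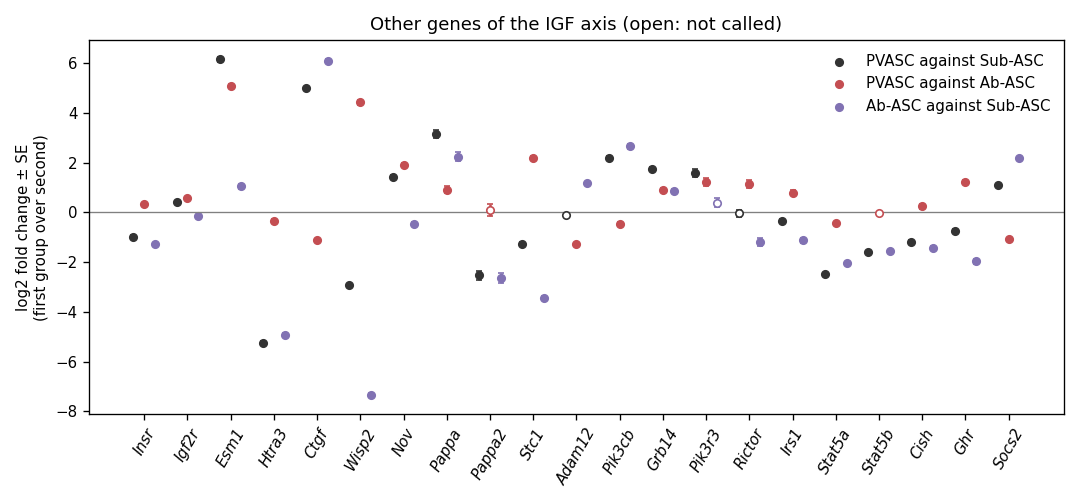
Log2 fold change ± SE of the 21 other IGF axis genes named by rank, without Insrr and Igfals, in the 3 comparisons, where values above 0 are higher in the first group and open circles did not pass the threshold. Values lie above 0 for 9 genes in PVASCs against Sub-ASCs, 14 in PVASCs against Ab-ASCs and 8 in Ab-ASCs against Sub-ASCs. Over the 3 comparisons together, those farthest from 0 are Wisp2 and Ctgf in Ab-ASCs against Sub-ASCs and Esm1 in PVASCs against Sub-ASCs. Without TMM, the values of Adam12 and Rictor in PVASCs against Sub-ASCs and of Stat5b in PVASCs against Ab-ASCs turn from below to above 0.

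Marker genes of other cell types also differed between the groups, and their part in the results for the IGF genes was not tested. The summed CPM of 7 mesothelial markers ranged from 1.30 to 2.28 in Sub-ASCs, where Lrrn4 and Muc16 were at 0, from 82.8 to 86.0 in Ab-ASCs and from 31.8 to 32.8 in PVASCs, which is the order of Igfbp2. Muc16 had at most 4 reads in any library, and Wt1 was the largest part of the sum in Ab-ASCs, at 47.6 CPM. Of these 7, 6 were tested, and all 6 were higher in Ab-ASCs and in PVASCs than in Sub-ASCs (37.0% and 34.7% of all genes). Krt19 did not follow the order of the sum, at 1.12 CPM in Sub-ASCs, 4.39 in Ab-ASCs and 14.7 in PVASCs. The 6 mural markers summed to 87.1 to 93.2 CPM in Sub-ASCs, 4342 to 5417 in Ab-ASCs and 2841 to 3000 in PVASCs, with none at 0. Most of this sum was Acta2, at 52.7, 4436 and 2505 CPM, whose order was that of Igfbp7 and Igfbp2, whereas 3 of the 6 markers were higher and 3 lower in PVASCs than in Ab-ASCs (24.7% and 32.1% of all genes). Those higher in PVASCs were Rgs5, at 6.27, 0.752 and 22.6 CPM, Cspg4, at 1.47, 31.9 and 72.6, and Mcam, at 22.4, 24.9 and 134. The 7 stromal markers went from 20606 to 21634 CPM in Sub-ASCs, 10640 to 10931 in Ab-ASCs and 5642 to 5893 in PVASCs, and none was at 0. Members did not all follow this sum, since Col1a1 was at 3402, 5072 and 2561 CPM and Cd34 at 128, 14.0 and 95.0 CPM. The 6 endothelial markers, among which Pecam1 was counted, summed to 139 to 150, 55.1 to 56.5 and 750 to 754 CPM, highest in PVASCs, as was Esm1, although Cldn5 was at 9.01, 0.928 and 0.797 CPM and thus 11.3-fold lower in PVASCs than in Sub-ASCs (edgeR adjusted p = 2.64e-09). The 7 macrophage markers summed to 285 to 289, 325 to 414 and 313 to 323 CPM, with none at 0. Lyz2 made up most of this sum, at 163, 271 and 249 CPM, while 2 of the 7 were higher and 5 lower than in Sub-ASCs both in PVASCs (34.7% and 35.7% of all genes) and in Ab-ASCs (37.0% and 38.3%). The 5 adipocyte markers summed to 142 to 155, 35.0 to 38.2 and 45.6 to 48.3 CPM, with Lep at 0 in all groups. Fabp4 made up most of this sum, at 129, 36.6 and 46.3 CPM, in the order of Igf1 and Igfbp3. The 6 proliferation genes summed to 52.2 to 57.5, 533 to 623 and 568 to 581 CPM. All 6 were higher in Ab-ASCs and in PVASCs than in Sub-ASCs (37.0% and 34.7% of all genes). In PVASCs against Ab-ASCs, 1 was higher, 4 were lower and 1 was not called (24.7% higher and 32.1% lower). Mki67 was at 10.7, 79.4 and 140 CPM, and Cdk1 at 9.13, 130 and 83.7 CPM.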

How the data were processed

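The authors deposited raw counts per gene for 9 libraries of mouse ASCs, made from total RNA with a NEBNext Ultra kit, with the length of each gene. Per the submitters' processing notes, CASAVA 1.8, Bowtie 0.12.2 and featureCounts 1.5.0-p3 and the builds mm8 and mm10 were used. Roles and strandedness are not given in the sources used here. Listed positions equalled those of GENCODE M21 on GRCm38 (mm10) for 98.1% of genes and for all 8 IGF genes.

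Counts were filtered by filterByExpr, normalized by TMM and tested by the quasi-likelihood F-test of edgeR 4.0.16 (limma 3.58.1, R 4.3.3), with all 9 libraries in 1 fit without covariates, Benjamini-Hochberg adjustment and a threshold of 0.05. The procedure was tested on simulated data. FPKM was calculated from counts, gene length and library total. Tables and plots used Python 3.11.15, pandas 2.3.3, numpy 2.4.6 and matplotlib 3.10.9, and promoter sequences are from RefSeq (GRCm38.p6), where all 8 genes matched. Windows of the 4 other genes are not shown.

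The 8 genes and the lists were chosen with earlier results of these data known. Named genes were the 8 genes, up to 3 genes per list and comparison with the largest absolute log2 fold change, and the 3 nearest protein-coding genes for each of the 8. As alternatives, other low-count filters, RLE size factors, DESeq2 1.42.0, fits restricted to the groups in question, a replicate block, a fold limit and leaving out each library were tried. Library totals without TMM and the length of the longest transcript were added after seeing the data.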

Additional observations from a re-analysis of the deposited data

How the results depend on the processing

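No call of the 8 IGF genes turned direction under DESeq2, RLE size factors, other filters, a fit of only the groups compared, the replicate block or leaving out any library. For Igfbp5 in PVASCs against Sub-ASCs, which was not called, library totals without TMM gave a log2 fold change of 0.09 in place of -0.07. Among the 54 axis genes the sign turned for 4 in this comparison, Adam12 (-0.10 to 0.06) and Rictor (-0.04 to 0.11) among them, and for 9 in PVASCs against Ab-ASCs, Stat5b (-0.03 to 0.19) among them, and none of these was called on both scales. Library totals moved the median of all genes by 0.16 in PVASCs against Sub-ASCs and by 0.22 against Ab-ASCs. In PVASCs against Ab-ASCs, the log2 fold change of Igfbp7 ranged from -0.40 to -0.12 over all alternatives, and that of Igfbp6 from -0.54 to -0.26. Their adjusted p was at most 0.0435 and 0.0279. Igf1r in Ab-ASCs against Sub-ASCs was no longer called without a low-count filter (adjusted p = 0.170) or in a fit of only these groups (0.0746). Igfbp4 in PVASCs against Ab-ASCs was called with DESeq2 (0.0366), RLE size factors (0.036), at least 10 reads in every library (0.0196), only these groups (0.0148) and library totals (1.21e-04). Igfbp6 in PVASCs against Sub-ASCs was called without a filter (0.0186) and with only these groups (0.0068). With the replicate block its adjusted p was 0.0454, and 7 of the 8 genes were called in both comparisons of PVASCs and 8 between Ab-ASCs and Sub-ASCs. The replicate numbers mark no shared animal or batch in the labels, and deviations of same-numbered libraries correlated between -0.051 and 0.095. Libraries correlated best with their own number in 6 of 6 cases for PVASCs and Sub-ASCs, 0 of 6 for PVASCs and Ab-ASCs and 3 of 6 for Ab-ASCs and Sub-ASCs, a hint from the data only. Leaving out each library in turn gave 6 to 7 called genes in PVASCs against Sub-ASCs, 7 to 8 against Ab-ASCs and 6 to 8 between Ab-ASCs and Sub-ASCs. A log2 fold change of 1 or more in size left 2 IGF genes in PVASCs against Ab-ASCs, and of all genes 5328, 2551 and 6241 and of the axis lists 26, 11 and 28 in the order just given. The share of Igfbp7 among binding protein transcripts was 19.4%, 75.0% and 56.3% in Sub-ASCs, Ab-ASCs and PVASCs by CPM without length, and 40.3%, 81.4% and 76.2% with the longest GENCODE transcript, a choice made after seeing the data. With that length, Igfbp1 to Igfbp6 per Igf1 came to 37.2, 70.2 and 52.9, and by CPM to 17.7, 17.5 and 22.4, both also tried after seeing the data. For these shifts the cause was not tested beyond what each alternative changes. Low reads limit Igfbp2 in Sub-ASCs, at 17 to 25 per library.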
